A study of Rattus norvegicus with 6 samples.

Results

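The genes of the nuclear pore and of its transport receptors were followed through sperm formation in the rat testis. The 44 genes were those whose names in the deposited count tables begin with Nup, Kpna, Ipo, Xpo or Tnpo followed by a digit, together with Kpnb1 and Xpot, out of 21170 genes in the tables. They were 22 nucleoporin genes, 7 importin alpha genes, 9 genes of importin beta and its relatives, and 6 exportin genes. Testicular tissue came from SD rats, a laboratory strain whose age is not given in the sources used here. The stressed group was 3 rats that had gone through a stress model built on a frightening sound, and the control group was 3 normal rats labelled as controls. Each rat gave 1 single-cell library of dissociated whole tissue, and none of the labels gives a transgene, a drug or a batch.

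The nuclear pore complex is a ring of nucleoporins set in the nuclear envelope, with outer and inner scaffold rings, a channel of flexible repeats, filaments on the cytoplasmic face and a basket on the nuclear face. Importins carry proteins into the nucleus and exportins carry proteins and RNA out, and the direction is set by the small GTPase Ran, which is loaded with GTP inside the nucleus and hydrolyses it outside. In the testis these carriers work while spermatocytes go through meiosis and while spermatids exchange histones for transition proteins and protamines and shape a compact nucleus.

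The 6 libraries held 11744 cells, with 409, 2506 and 2233 cells in stressed replicates 1 to 3 and 2342, 1801 and 2453 cells in control replicates 1 to 3. Total counts per library ran from 16756543 to 114984746, the lowest being stressed replicate 1, and any pair of libraries shared 0 or 1 cell barcode. Cells were clustered without the 44 genes, and clusters were named from fixed markers as spermatocyte-like (meiotic), round spermatid-like and elongating spermatid-like. These classes held 24, 224 and 368, then 99, 533 and 827, then 53, 1741 and 1032 cells in stressed replicates 1 to 3, and 468, 165 and 122, then 671, 547 and 1046, then 1199, 1008 and 1283 cells in control replicates 1 to 3. The naming used these markers, so their sums describe the classes and do not test the names. Spermatocyte markers summed to 2468 to 4708 CPM (counts scaled to a common total per sum) in the spermatocyte-like class and to 181 to 279 CPM in the elongating class, where elongating spermatid markers summed to 95242 to 147776 CPM. In the round class, round spermatid markers summed to 4778 to 5499 CPM and elongating spermatid markers to 27954 to 43041 CPM. Stressed replicate 1 stood apart. Its 24 spermatocyte-like cells carried 868 CPM of stromal and 1004 CPM of macrophage markers, against 4.72 to 22.6 and 51.3 to 68.4 CPM in the other 5 libraries, and 41 of its 53 elongating cells lay in the first elongating cluster. Another cluster, with 313 cells and Apoe, Fos and Cd74 as leading genes, of which 231 came from that library and 72 from control replicate 2, expressed macrophage and elongating spermatid markers and was left out of the classes.

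Levels are counts summed per library and class, as CPM scaled by TMM factors, which set the bulk of genes equal between sums. A CPM is a share of a class's counts, so more RNA of a gene per cell and less RNA of other genes cannot be told apart. The factors differed strongly between classes, at 1.59 to 2.23 in spermatocyte-like, 1.07 to 1.26 in round and 0.413 to 0.822 in elongating sums, so each change is also given without them. Leaving them out moved the median gene by -0.64 (log2) in the step to round spermatids and by -1.28 in the step to elongating spermatids. Levels are not divided by gene length, and no gene's level is compared with another's. A change was called at an adjusted p under 0.05 over all genes in edgeR's quasi-likelihood test with the library as a block.

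Of the 44 genes, 42 passed the filter on low counts in this test. The 2 that did not were Nup210, a membrane-spanning nucleoporin with 7 counts in all stressed and 7 in all control libraries, and the importin alpha gene Kpna7, with 0 in the stressed and 7 in the control libraries. In round against spermatocyte-like cells, 9 of the 42 rose, where 37.8% of all genes tested did, and 16 fell, where 27.7% of all genes tested did. In elongating against round cells, 13 rose against 26.2% of all genes and 21 fell against 33.6%. Leaving out TMM factors lowers nearly all changes together, so no call of a fall was lost by it, among these genes or among all genes (27.7% and 33.6% called lower both ways). It raised the falls called to 26 in the first step (43.2% of all genes) and 28 in the second (63.1%). Of the rises, 6 in the first step (30.2% of all genes were called higher both ways) and 3 in the second (9.53%) were called both ways. The median log2 change of the 42 was -0.24 in the first step, against 0.11 for all genes, and -0.71 in the second, against -0.22. Relative to the median gene these are -0.35 and -0.49 with TMM factors, and -0.37 and -0.50 without them.

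**Figure D1:**
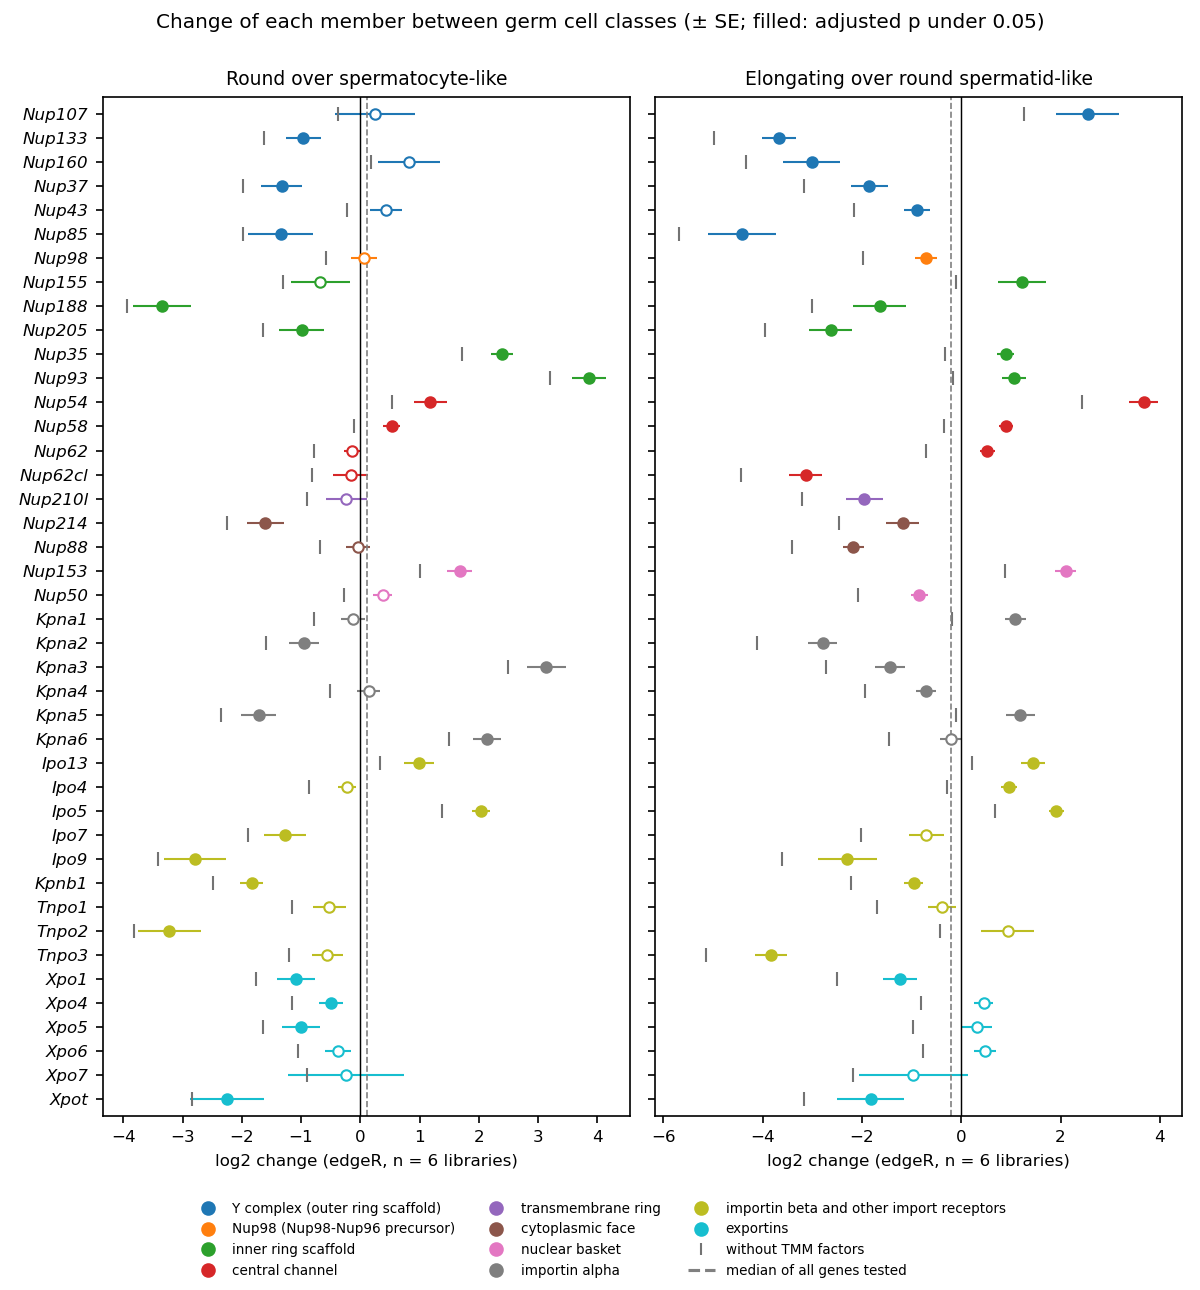
Log2 change (horizontal axis, ± SE, n = 6 libraries) of each of the 42 genes tested, in round over spermatocyte-like cells at left and in elongating over round cells at right, coloured by role, with filled circles for called changes, ticks for the value without TMM factors and a dashed line for the median gene. Nup93 and Kpna3 lie farthest right in the first step and Nup54 in the second, and the ticks show that most of the smaller rises in elongating cells end up at or below 0 without TMM factors.

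Promoter sequences of 40 of the 44 genes were found in the RefSeq table for GRCr8, and those of 4 genes with large stage changes are shown for the letters just upstream of their starts. Nup93, Ipo5 and Nup54 rose and Kpna2 fell. Each line holds the 250 bases before the annotated start, 5′ to 3′ on the gene's strand, with capitals for 3 motifs searched on both strands: the cAMP response element TGACGTCA, its core TGACG, which lies within it, and the CCAAT box.
Nup93, chr19:10793938-10794187 (minus strand): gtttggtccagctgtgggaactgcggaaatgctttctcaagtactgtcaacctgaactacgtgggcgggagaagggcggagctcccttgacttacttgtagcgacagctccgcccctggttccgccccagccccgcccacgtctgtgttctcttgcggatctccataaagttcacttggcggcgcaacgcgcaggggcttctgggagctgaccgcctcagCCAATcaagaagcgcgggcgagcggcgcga
Ipo5, chr15:104411998-104412247 (plus strand): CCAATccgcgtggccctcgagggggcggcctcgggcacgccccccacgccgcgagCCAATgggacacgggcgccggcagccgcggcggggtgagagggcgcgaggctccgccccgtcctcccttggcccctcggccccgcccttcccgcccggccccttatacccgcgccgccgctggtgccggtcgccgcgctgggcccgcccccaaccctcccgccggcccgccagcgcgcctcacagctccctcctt
Nup54, chr14:15901784-15902033 (plus strand): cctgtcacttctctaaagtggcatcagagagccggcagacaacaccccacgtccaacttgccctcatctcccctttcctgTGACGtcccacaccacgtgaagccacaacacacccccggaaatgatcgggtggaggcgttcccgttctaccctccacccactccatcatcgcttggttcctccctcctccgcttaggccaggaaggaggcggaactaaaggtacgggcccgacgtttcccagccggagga
Kpna2, chr10:92445842-92446091 (minus strand): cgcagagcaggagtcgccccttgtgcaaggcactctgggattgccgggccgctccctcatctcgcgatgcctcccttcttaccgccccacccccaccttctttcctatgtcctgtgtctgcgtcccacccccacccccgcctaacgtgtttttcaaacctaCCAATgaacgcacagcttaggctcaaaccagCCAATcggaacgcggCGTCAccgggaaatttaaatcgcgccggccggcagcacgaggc
Nup93 holds 1 CCAAT box and Ipo5 holds CCAAT in 2 places, Nup54 holds 1 TGACG, and Kpna2 holds CCAAT in 2 places and TGACG as its reverse complement CGTCA. The same window of Nup35, a gene that also rose and is not printed here, held none of the 3 motifs. Over all 33469 promoters of the same length in the RefSeq table, TGACGTCA was present in 1.59%, TGACG in 18.2% and CCAAT in 34.0%. That set was not limited to genes of the count tables or to genes expressed in these cells. Over the 40 members found, TGACGTCA was present in 2, TGACG in 45.0% and CCAAT in 45.0%. TGACG was present in 5 of 11 promoters of members called higher in elongating cells and in 10 of 18 of those called lower, and CCAAT in 4 of 11 and 11 of 18. These are matches of letters within one window and carry no test.

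The inner ring scaffold, which joins the outer rings to the channel, split in opposite directions, with Nup93 and Nup35 rising early and Nup188 and Nup205 falling at both steps. Nup93, the linker that anchors the channel nucleoporins, had 0.520 to 4.78 TMM-scaled CPM in the spermatocyte-like class (median 2.73), 30.2 to 51.8 in the round class (median 37.1) and 63.2 to 103 in the elongating class (median 77.3). No spermatocyte-like sum reached the lowest round sum, and no round sum reached the lowest elongating sum. The first step was a 14.5-fold rise (log2 change 3.86 ± 0.29, SE, n = 6, adjusted p = 2.26e-09; 3.20 without TMM factors), and the second a log2 change of 1.07 ± 0.25 (adjusted p = 0.00114) that was -0.17 without TMM factors. Nup35, which binds the membrane of the pore, had 37.9 to 116 CPM in spermatocyte-like (median 85.3), 364 to 454 in round (median 407) and 464 to 1053 in elongating sums (median 795). Its first step was 5.23-fold (log2 change 2.39 ± 0.18, adjusted p = 2.90e-09; 1.72 without TMM factors), while its second, 0.89 ± 0.17, was -0.33 without TMM factors. The Nup35 gene overlaps Dusp19 in the RefSeq annotation of GRCr8, and whether reads were counted by strand is not given, so reads of that pair may be shared.

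Nup188 and Nup205, the large paralogous scaffold proteins that bind Nup93, went the other way. Nup188 had 5.72 to 26.0 CPM in spermatocyte-like sums, 0 to 4.04 in round sums and 0 to 0.917 in elongating sums, with medians of 11.7, 1.05 and 0.405. It fell 10.2-fold at the first step (log2 change -3.35 ± 0.50, adjusted p = 1.25e-05; -3.94 without TMM factors), with no round sum as high as any spermatocyte-like sum. Its second fall rested on 28 counts in the stressed and 22 in the control elongating sums. Stressed replicate 1 had 0 counts of it in both the round and the elongating class. Nup205 had medians of 9.23, 4.73 and 0.734 CPM in the 3 classes in stage order, and its larger step was the second, a 6.20-fold fall in elongating cells (log2 change -2.63 ± 0.44, adjusted p = 5.00e-05). Nup155, a scaffold protein at the pore membrane, was not called at the first step (-0.67 ± 0.50, adjusted p = 0.246), and its second step was 1.22 ± 0.49 (adjusted p = 0.0408) in 5 of 6 libraries and -0.11 without TMM factors.

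The Y complex forms the outer rings of the pore. Of its 6 genes that the name rule takes, 3 fell in round cells, against 27.7% of all genes, and 5 fell in elongating cells, against 33.6%. Relative to the median gene the 6 had a median log2 change of -0.47 and -2.22 in the 2 steps, or -0.47 and -2.26 without TMM factors. Nup133, which anchors the complex at curved membrane, had 26.5 to 62.2 CPM in spermatocyte-like, 17.5 to 26.9 in round and 0.569 to 4.98 in elongating sums (medians 43.7, 22.0 and 1.22). All elongating sums lay below all round sums, a 12.7-fold fall (log2 change -3.67 ± 0.34, adjusted p = 7.09e-08). Nup85 had medians of 6.08, 2.30 and 0.0540 CPM in stage order and the largest fall of the 42 in elongating cells (log2 change -4.42 ± 0.68, adjusted p = 2.46e-05), resting on 2 counts in the stressed and 11 in the control elongating sums. Nup160, an arm of the Y, had medians of 3.19, 3.64 and 0.338 CPM and fell in elongating cells (-3.02 ± 0.57, adjusted p = 0.000196), as did Nup37 (-1.86 ± 0.37, adjusted p = 0.000350) and Nup43 (-0.89 ± 0.27, adjusted p = 0.00846), both small outer subunits whose genes overlap Parpbp and Pcmt1.

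Nup107, the core partner of Nup133, was the exception among the 6 Y complex genes that the name rule takes, at very low counts. Ahctf1, a Y complex partner outside the rule, also rose in elongating cells (log2 change 3.85 ± 0.25; 2.58 without TMM factors). Its median was 0.197 CPM in spermatocyte-like, 0.174 in round and 1.56 in elongating sums, from 49 counts in the stressed and 91 in the control elongating cells. All 6 elongating sums, at 0.713 to 1.99 CPM, lay above all round sums, at 0 to 0.522. The log2 change was 2.55 ± 0.64 (adjusted p = 0.00223), and without TMM factors it was 1.25 with an adjusted p of 0.0857. Nup98, whose product is cut into the channel protein Nup98 and the Y complex protein Nup96, was not called in round cells (0.07 ± 0.22, adjusted p = 0.801; -0.57 without TMM factors) and fell in elongating cells (-0.71 ± 0.22, adjusted p = 0.0110) in 5 of 6 libraries.

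The channel nucleoporins Nup54, Nup58 and Nup62 form a trimer whose repeats fill the pore. Nup54 changed most. It had 3.35 to 12.5 CPM in spermatocyte-like, 5.98 to 27.0 in round and 77.8 to 307 in elongating sums, with medians of 6.87, 18.6 and 244. Its rise in elongating cells was 12.8-fold (log2 change 3.68 ± 0.29, adjusted p = 8.31e-09; 2.43 without TMM factors), and the lowest elongating sum, that of control replicate 1, was higher than every round sum. The rise in round cells was smaller (1.18 ± 0.28, adjusted p = 0.00134) and was not called without TMM factors (0.53, adjusted p = 0.0902).

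For its partners the sign of the change differed between scalings, while the second step lay above that of the median gene under both. Nup58 had medians of 35.1, 46.4 and 84.0 CPM in stage order, and its called rises of 0.53 ± 0.15 in round and 0.90 ± 0.15 in elongating cells were -0.11 and -0.36 without TMM factors, where the median gene was at -0.53 and -1.50. Nup62 had medians of 70.7, 61.4 and 83.5 CPM, with a first step of -0.13 ± 0.15 that was not called (adjusted p = 0.442) and a second of 0.52 ± 0.15 (adjusted p = 0.00557) that was -0.72 without TMM factors (adjusted p = 0.00221). The call of that second step was lost with the Apoe cluster counted as elongating (0.27, adjusted p = 0.238) and at a Leiden resolution of 0.5 in the clustering (0.34, adjusted p = 0.0568). The Nup62 gene overlaps Atf5 and Il4i1. Nup62cl, a shorter relative of Nup62, had 13.5 to 25.7 CPM in spermatocyte-like, 11.3 to 22.5 in round and 0.635 to 3.10 in elongating sums. It fell 8.80-fold in elongating cells (log2 change -3.14 ± 0.34, adjusted p = 3.49e-07), and its elongating sums lay below all round sums. Its gene overlaps Dnaaf6.

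Both genes measured of the cytoplasmic face fell in elongating cells, while the genes of the nuclear basket went in opposite directions there. Nup88, which with Nup214 docks export complexes on the cytoplasmic face, had 156 to 310 CPM in spermatocyte-like, 170 to 290 in round and 36.7 to 127 in elongating sums, with medians of 242, 248 and 45.7. It was not called at the first step (-0.04 ± 0.20, adjusted p = 0.885; -0.68 without TMM factors) and fell 4.51-fold at the second (log2 change -2.17 ± 0.21, adjusted p = 1.22e-07). The Nup88 gene overlaps Rabep1. The elongating sum of 127 CPM was that of stressed replicate 1, and the other 5 lay between 36.7 and 46.6 CPM. Nup214 fell at both steps (-1.60 ± 0.31, adjusted p = 0.000214, and -1.18 ± 0.32, adjusted p = 0.00435), the second in 5 of 6 libraries.

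Nup153, which tethers the basket to the ring and binds importins and the lamina, rose at both steps under both scalings. It had 10.4 to 35.2 CPM in spermatocyte-like, 62.2 to 97.4 in round and 270 to 388 in elongating sums, with medians of 21.4, 72.6 and 310, and the 3 classes did not overlap. The log2 changes were 1.68 ± 0.21 (adjusted p = 2.09e-06; 1.01 without TMM factors) and 2.10 ± 0.21 (adjusted p = 1.57e-07; 0.89 without TMM factors). Nup50, the mobile basket protein that helps release cargo from importin alpha, was not called in round cells (0.38 ± 0.17, adjusted p = 0.0552; -0.28 without TMM factors) and fell in elongating cells (-0.85 ± 0.17, adjusted p = 0.000288). Nup210l, a relative of Nup210, had medians of 10.7, 9.55 and 2.93 CPM and fell in elongating cells (-1.95 ± 0.37, adjusted p = 0.000177).

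The importin alpha proteins recognise the classical nuclear localisation signal and hand the cargo to importin beta, and the genes peaked in different classes. Kpna2 had 11.4 to 23.2 CPM in spermatocyte-like, 5.42 to 9.96 in round and 0.494 to 1.71 in elongating sums, with medians of 15.2, 8.47 and 1.31 and no overlap between classes. It fell at both steps (log2 change -0.95 ± 0.26, adjusted p = 0.00346, and -2.79 ± 0.29, adjusted p = 2.18e-07), 6.92-fold at the second. Kpna3 was highest in round cells, with 0.520 to 8.39 CPM in spermatocyte-like, 23.8 to 89.8 in round and 5.69 to 35.8 in elongating sums. Every round sum was above every spermatocyte-like sum, while round and elongating sums overlapped across libraries. Within libraries Kpna3 rose 8.81-fold at the first step (log2 change 3.14 ± 0.33, adjusted p = 2.03e-07; 2.49 without TMM factors) and fell at the second in all 6 libraries (-1.43 ± 0.30, adjusted p = 0.000525; -2.72 without TMM factors).

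Kpna6 had medians of 8.14, 33.8 and 27.6 CPM in stage order and rose 4.41-fold in round cells (log2 change 2.14 ± 0.24, adjusted p = 3.42e-07; 1.49 without TMM factors). Its second step was not called with TMM factors (-0.21 ± 0.22, adjusted p = 0.432) and was -1.46 without them (adjusted p = 7.99e-05). Kpna4, the closest relative of Kpna3, was not called in round cells, with a change of 0.14 ± 0.19 (adjusted p = 0.541) that was -0.51 without TMM factors, and fell in elongating cells (-0.71 ± 0.20, adjusted p = 0.00475). Kpna5 fell 3.29-fold in round cells (-1.72 ± 0.30, adjusted p = 6.19e-05), and its called change of 1.18 ± 0.29 in elongating cells was -0.12 without TMM factors. Kpna1 was not called at the first step (-0.12 ± 0.21, adjusted p = 0.626; -0.78 without TMM factors), and its second, 1.09 ± 0.21, was -0.18 without them.

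Among the receptors of the importin beta family, Ipo5 rose and Kpnb1 fell at both steps. Ipo5, also called importin beta 3, which carries ribosomal proteins and histones, had 74.2 to 134 CPM in spermatocyte-like, 343 to 586 in round and 1285 to 2181 in elongating sums, with medians of 109, 403 and 1595 and no overlap between classes. It rose 4.12-fold (log2 change 2.04 ± 0.16, adjusted p = 2.97e-09; 1.37 without TMM factors) and then 3.77-fold (1.92 ± 0.15, adjusted p = 1.18e-08; 0.68 without TMM factors). Kpnb1, importin beta itself, the partner of all importin alpha proteins, had 28.5 to 62.3 CPM in spermatocyte-like, 6.93 to 18.4 in round and 3.09 to 11.4 in elongating sums. It fell 3.57-fold (-1.83 ± 0.19, adjusted p = 1.94e-07) and then 1.95-fold (-0.96 ± 0.20, adjusted p = 0.000416), so that all spermatocyte-like sums lay above all round sums, while round and elongating sums overlapped.

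Tnpo3, the importer of serine- and arginine-rich splicing factors, kept 13.9 to 17.8 CPM in round sums, beside 17.8 to 30.1 in spermatocyte-like sums, and dropped to 0.546 to 3.42 in elongating sums. The first step was not called (-0.56 ± 0.26, adjusted p = 0.0723; -1.21 without TMM factors) and the second was a 14.3-fold fall (-3.84 ± 0.32, adjusted p = 1.69e-08). Tnpo2, a transportin that imports RNA-binding proteins, fell 9.35-fold in round cells (-3.22 ± 0.53, adjusted p = 3.95e-05), with 14 counts in the stressed and 86 in the control round sums. Tnpo2 was not called after that (0.94 ± 0.54, adjusted p = 0.144; -0.44 without TMM factors). Its paralog Tnpo1 was called at neither step (-0.52 ± 0.29, adjusted p = 0.120, and -0.38 ± 0.29, adjusted p = 0.261; -1.16 and -1.69 without TMM factors). Ipo9, a carrier of histones and actin, fell at both steps (-2.79 ± 0.52, adjusted p = 0.000157, and -2.29 ± 0.60, adjusted p = 0.00300). Its second fall rested on 2 counts in the stressed and 22 in the control elongating sums. Ipo7, a carrier of ribosomal proteins and linker histone, fell at the first step (-1.27 ± 0.35, adjusted p = 0.00407). Ipo13 had called changes of 0.996 ± 0.25 in round cells (adjusted p = 0.00232), in 5 of 6 libraries, and 1.44 ± 0.25 in elongating cells (adjusted p = 7.39e-05), which were 0.34 and 0.22 and not called without TMM factors. Ipo4, a carrier of histones, was not called in round cells (-0.23 ± 0.15, adjusted p = 0.209; -0.86 without TMM factors), and its change of 0.96 ± 0.15 in elongating cells was -0.29 without TMM factors.

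Of the 6 exportins, 4 fell in round cells, against 27.7% of all genes, and 2 fell in elongating cells, against 33.6% of all genes. The others were not called. Relative to the median gene, Xpo4, Xpo5 and Xpo6 were at 0.67, 0.53 and 0.69 in the second step, none of them called. Xpo1, the general exporter of proteins with a leucine-rich signal, had 7.80 to 21.8 CPM in spermatocyte-like, 4.92 to 12.3 in round and 1.55 to 5.41 in elongating sums, with medians of 15.1, 6.497 and 2.79. It fell at the first step in 5 of 6 libraries (-1.09 ± 0.32, adjusted p = 0.00682, but 0.0583 without stressed replicate 2) and at the second in all 6 (-1.23 ± 0.33, adjusted p = 0.00396). Xpot, the exporter of transfer RNA, had medians of 4.81, 1.03 and 0.331 CPM and fell 4.75-fold at the first step (-2.25 ± 0.62, adjusted p = 0.00415). It also fell at the second in 5 of 6 libraries (-1.83 ± 0.68, adjusted p = 0.0269), resting on 15 counts in the stressed and 28 in the control elongating sums. Xpo5, the exporter of microRNA precursors, fell at the first step (-0.998 ± 0.316, adjusted p = 0.0102) and was not called at the second (0.31 ± 0.31, adjusted p = 0.411; -0.96 without TMM factors). Its first call was lost without control replicate 1 (adjusted p = 0.0554) and without control replicate 2 (adjusted p = 0.0503). Xpo4 fell slightly at the first step (-0.50 ± 0.20, adjusted p = 0.0347). Xpo6, the exporter of actin with profilin, and Xpo7, which overlaps Dok2 and had a median below 1 CPM in every class, were called at neither step.

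**Figure D2:**
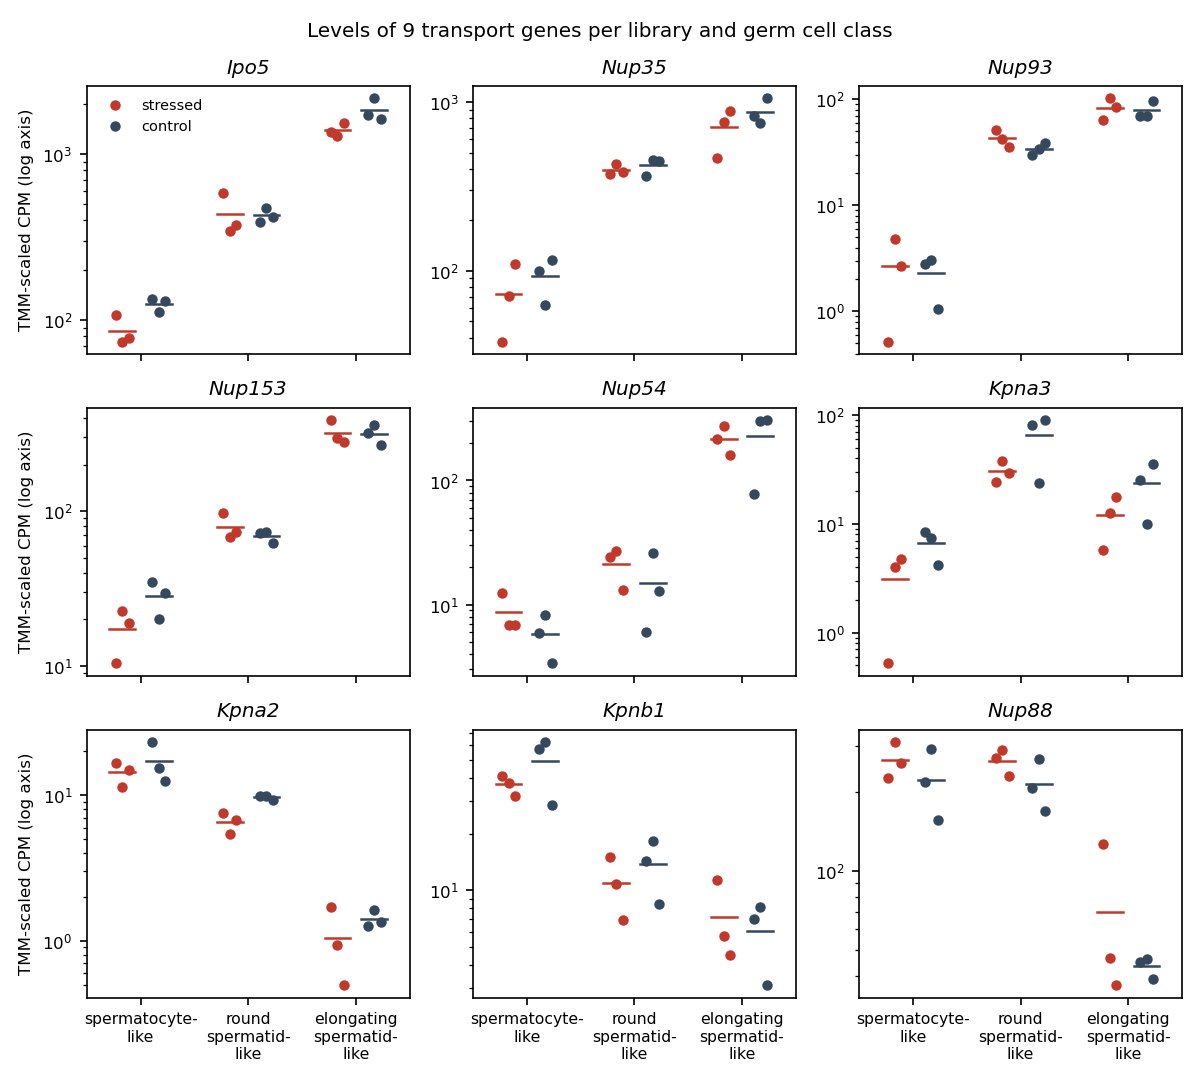
TMM-scaled CPM (log axis) of 9 genes in each library, by germ cell class in stage order, with stressed libraries in red left of control libraries in dark blue, 1 point per library and a line at each group mean (n = 3). Ipo5, Nup35, Nup93, Nup153 and Nup54 are highest in elongating cells, Kpna3 is highest in round cells, and Kpna2, Kpnb1 and Nup88 are lowest in elongating cells, where stressed replicate 1 has 127 CPM of Nup88; without TMM factors the second-step changes of Nup35 and Nup93 are negative.

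Along a finer order of clusters the genes did not all peak in the same cluster. The 12 germ cell clusters with at least 20 cells in at least 2 libraries were ordered by the ratio of elongating spermatid to spermatocyte markers, and levels here are plain CPM, without TMM factors, as the median over 4 to 6 libraries. Cluster 1, a spermatocyte-like cluster of 41 cells and the earliest in this order, and cluster 8, a round cluster of 44 cells, were too small and are not shown. Of the 42 genes, 30 were highest in the 2 spermatocyte-like clusters shown, 18 in cluster 2, led by Psma8 and Piwil1, and 12 in cluster 3, whose leading genes include Tpx2 and Aurka. Another 6 were highest in round clusters and 6 in elongating clusters. Plain CPM lowers elongating values, and the mean level over the 3 classes shows how far this reaches. With TMM factors 21 genes were highest in spermatocyte-like, 8 in round and 13 in elongating cells (40.3%, 23.5% and 36.2% of all genes tested), and with plain CPM 33, 4 and 5 were (57.2%, 28.2% and 14.6%). Nup62cl was at 1.04 CPM in cluster 2 and 39.5 in cluster 3, and was at 23.6 CPM in the first round cluster. Kpnb1 went down early, from cluster 2 at 97.7 CPM through cluster 3 at 50.1 to 17.4 CPM in cluster 4, the first round cluster. Nup88 stayed between 198 and 433 CPM through the spermatocyte-like and round clusters shown and was at 76.3 and 16.2 CPM in the first 2 elongating clusters.

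**Figure D3:**
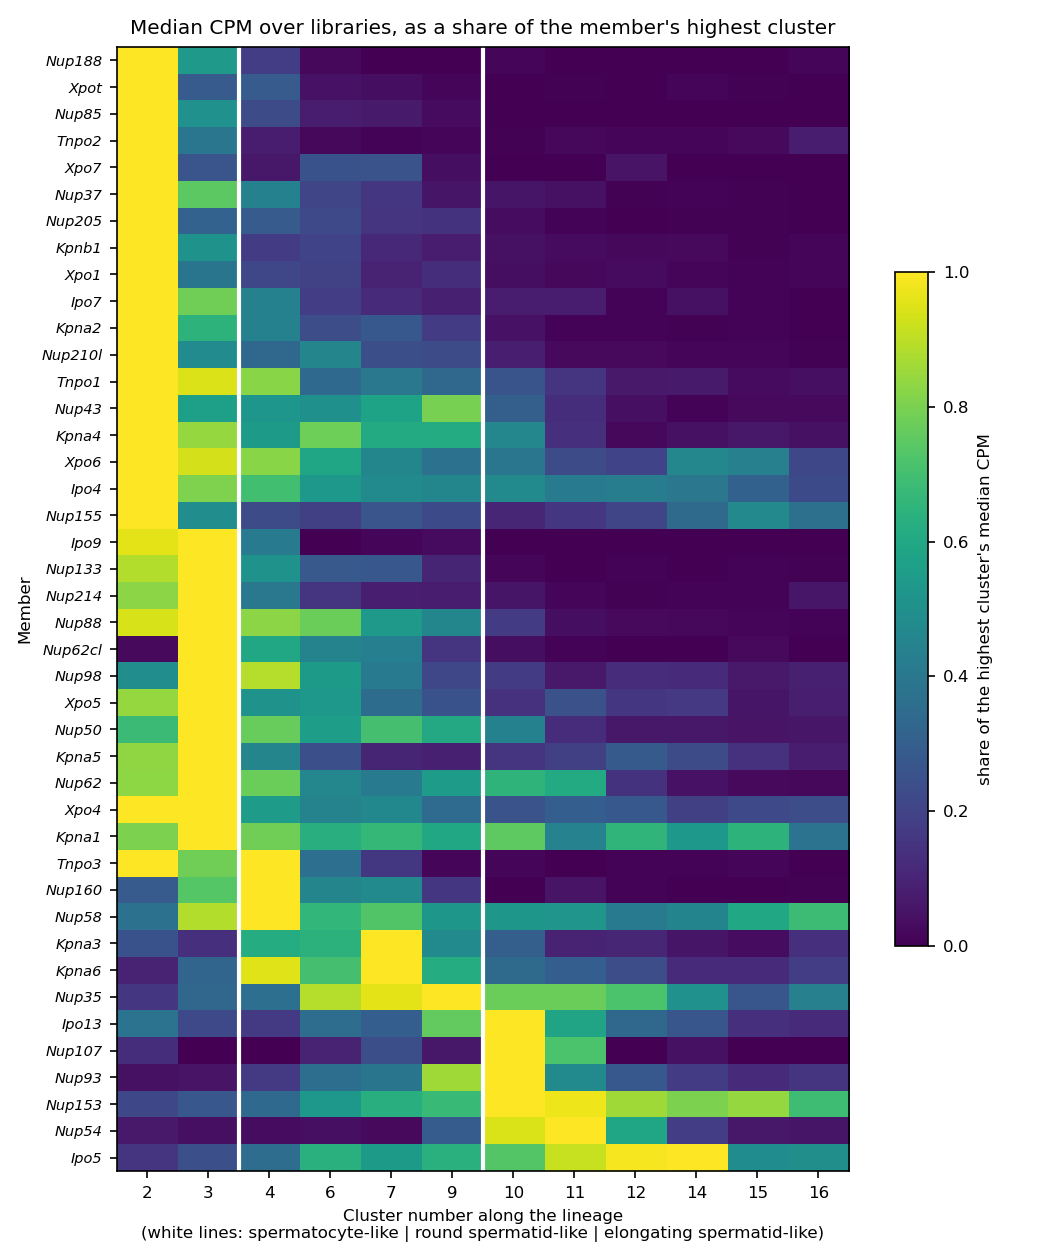
Median plain CPM over 4 to 6 libraries of each of the 42 genes in the 12 germ cell clusters, in lineage order from left to right, as a share of the gene's highest cluster (colour scale from 0 to 1), with white lines between the spermatocyte-like, round and elongating clusters. The upper 30 genes peak in the 2 spermatocyte-like clusters, and Nup54, Nup107 and Nup93 are highest around the passage from round to elongating cells, while Ipo5 and Nup153 spread over most elongating clusters.

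Nup54 was high in few clusters. It was at 4.83 to 12.5 CPM in the 5 clusters up to cluster 7, at 52.9 CPM in cluster 9, the last round cluster, and at 171 and 181 CPM in clusters 10 and 11, the first elongating clusters. After that it was at 107, 32.9, 11.4 and 10.2 CPM in the remaining clusters in order. In cluster 11 its libraries ran from 59.4 to 235 CPM, and the lowest of these was above its median in every germ cell cluster shown other than 10, 11 and 12. Nup93 was at 3.96 CPM in cluster 2, 77.0 in cluster 9 and 89.9 in cluster 10, and at 43.1 CPM in cluster 11, and Ipo13 was highest in cluster 10 as well, at 121 CPM. Nup35 was highest in cluster 9, at 583 CPM, and lower in the last clusters, at 155 and 255 CPM. Ipo5 went on later, to 889 CPM in cluster 14, whose leading gene is the transition protein gene Tnp1, and was at 431 and 438 CPM in the clusters after it. Nup153 was at 149 CPM in cluster 10 and still at 103 CPM in cluster 16, the last. Kpna3 and Kpna6 were both highest in cluster 7, at 62.3 and 51.6 CPM, with Kpna3 running from 23.9 to 124 CPM over 5 libraries and Kpna6 from 39.1 to 53.5 CPM. The clusters share libraries and were defined on the same cells, so this order is a description. Neighbouring clusters also differed in which libraries filled them. Clusters 6 and 7 held 229 and 58 cells of control replicate 2, and 9 and 542 of control replicate 3. Clusters 14 and 16 held 308 and 15 cells of control replicate 2, and 10 and 361 of control replicate 3. How far a peak in such a cluster reflects its libraries was not tested.

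The rest of the transport pathway was read from lists of genes that the name rule does not take. These genes, unlike the 44, could enter the clustering, so their counts describe the classes. Of 13 genes of the Ran cycle, 3 rose and 6 fell in round cells, and 5 rose and 4 fell in elongating cells, of which 2 rises were also called without TMM factors. Beside these lists, 37.8% of all genes rose and 27.7% fell in round cells, and 26.2% rose and 33.6% fell in elongating cells. Rcc1, which loads Ran with GTP on chromatin, had medians of 3.49, 25.8 and 276 CPM in stage order (log2 changes 2.74 ± 0.26 and 3.28 ± 0.25; 2.08 and 2.02 without TMM factors). Rangap1, which triggers hydrolysis at the cytoplasmic face, had medians of 17.3, 127 and 759 CPM (2.92 ± 0.23 and 2.36 ± 0.22; 2.25 and 1.10 without TMM factors). Ran itself fell in round cells (-0.56 ± 0.11, adjusted p = 0.000324), and its change in elongating cells was 0.39 ± 0.11 with and -0.86 without TMM factors. Ranbp3 and Ranbp1, cofactors of export and of Ran, fell in round cells (-3.49 ± 0.61 and -1.74 ± 0.26), and Ranbp2, the large filament nucleoporin, and Cse1l, which returns importin alpha to the cytoplasm, fell in elongating cells (-1.93 ± 0.30 and -1.50 ± 0.50, adjusted p = 0.0159).

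Of the other pore genes, 15 of 17 were tested, 5 rose and 5 fell in round cells, and 3 rose and 4 fell in elongating cells, with 3 and 2 of the rises also called without TMM factors. Ranbp2 is in this list and in that of the Ran cycle, so its falls at both steps are counted in both. Ahctf1, the Y complex partner that seeds pores on chromatin, had medians of 52.5, 77.7 and 1414 CPM and rose in elongating cells (3.85 ± 0.25; 2.58 without TMM factors), as did the membrane nucleoporin Pom121 (2.29 ± 0.21; 1.01 without TMM factors). Tpr, the basket filament, had medians of 64.6, 4.34 and 3.01 CPM and fell in round cells (-3.83 ± 0.33). The Y complex subunit Sec13 and the membrane nucleoporin Ndc1 fell in elongating cells (-3.20 ± 0.29 and -2.86 ± 0.24). Of 19 messenger RNA export genes tested of 20, 4 rose and 10 fell in round cells, and 14 fell and the other 5 were not called in elongating cells, with 2 of the 4 rises also called without TMM factors. Of 15 tested of 16 genes of the lamina and of the complex that links it to the cytoskeleton, 8 rose and 5 fell in round cells, and 1 rose and 7 fell in elongating cells, with Lmnb2, a B-type lamin, at -4.36 ± 0.28 in the second step. All 8 rises of the first step and 0 of the 1 in the second were also called without TMM factors. Sun5, counted among the 8 rises and the 7 falls, was also a fixed marker of the round class. Its calls were therefore set in part by the naming.

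The second comparison asked whether the genes differed between stressed and control rats, and none of them was called. Tests covered 40 of the 44 genes in spermatocyte-like, 40 in round and 37 in elongating cells and 42 in the sum of all cells. The quasi-likelihood test of edgeR called 0 of them in each, against 0%, 0.0166%, 0.00899% and 0.00689% of all genes tested, and DESeq2 also called 0. An unadjusted p under 0.05 was reached by Nup188 in spermatocyte-like cells (1.83% of all genes), by Kpna3 in round cells (3.23%), by 0 in elongating cells (1.57%) and by Kpna3 in all cells (1.38%). Whether the difference between the groups itself changed from class to class was tested as an interaction. Of 42 genes, 0 were called for round minus spermatocyte-like cells and 0 for elongating minus round cells by edgeR or DESeq2, against 0% of all genes in both, with 0 and 2 at an unadjusted p under 0.05 (3.77% and 2.03% of all genes). Labels call these separate rats, and p-values measure the spread between the 6 libraries.

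The fitted changes leaned below 0 in spermatocyte-like cells, where 29 of 40 were negative against 52.1% of all genes, with a median log2 change of -0.30 against -0.03 for all genes. The median was -0.35 without stressed replicate 1, the library with the high stromal and macrophage markers in this class. In the sum of all cells 29 of 42 were negative against 51.1% of all genes, with medians of -0.15 and -0.01. In round cells 24 of 40 were negative (50.2% of all genes) and in elongating cells 20 of 37 (53.9%), with medians of -0.07 and -0.05. Non-overlapping groups were found for 6 of 40 genes in spermatocyte-like cells, against 7.29% of all genes, all with the stressed libraries lower (5.24%), namely Ipo5, Ipo9, Nup188, Nup58, Nup62cl and Nup85. In round cells there were 6 of 40 against 8.53%, again all lower (4.75%), namely Ipo9, Kpna2, Tnpo1, Tnpo3, Xpo4 and Xpot. In elongating cells there were 4 of 37 against 6.26%, all lower (4.57%), namely Ipo5, Nup155, Nup58 and Nup62. The fitted change of Nup155, -1.05, was 0.29 with the Apoe cluster, which holds 231 cells of stressed replicate 1, counted as elongating. In the sum of all cells there were 3 of 42 against 4.91%, with Ipo9 and Nup160 lower (2.67%) and Xpo7 higher in the stressed libraries.

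Single genes show how far the libraries spread. Nup188 had 5.72, 7.68 and 9.96 CPM in spermatocyte-like cells of stressed replicates 1 to 3, against 26.0, 13.4 and 15.8 CPM in control replicates 1 to 3. The stressed libraries lay below all controls, and the log2 change was -1.14 ± 0.41 (adjusted p = 0.999). Ipo5 had 107, 74.2 and 77.8 CPM in stressed against 134, 112 and 130 CPM in control spermatocyte-like cells, a log2 change of -0.44 ± 0.28 (adjusted p = 0.999). In elongating cells it had 1368, 1285 and 1554 CPM in stressed against 1723, 2181 and 1637 CPM in control libraries (-0.31 ± 0.29, adjusted p = 1.00). In round cells, by contrast, stressed replicate 1 had the highest Ipo5 level of all 6, at 586 CPM, and the change was 0.02 ± 0.23.

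Kpna3 leaned low in the stressed libraries but rested on a wide spread among controls. In round cells it had 24.3, 38.0 and 29.2 CPM in stressed and 81.4, 23.8 and 89.8 CPM in control libraries, so control replicate 2 lay below all stressed libraries (-1.09 ± 0.44, adjusted p = 0.992). In elongating cells it had 5.69, 12.5 and 17.7 CPM in stressed and 25.2, 10.03 and 35.8 CPM in control libraries (-0.86 ± 0.48, adjusted p = 1.00), with control replicate 2 again inside the stressed range. The make-up of the round class differed by library. Cluster 7, where Kpna3 was highest, held 7 of 99, 88 of 533 and 306 of 827 round cells in stressed replicates 1 to 3. In control replicates 1 to 3 it held 231 of 671, 58 of 547 and 542 of 1046. The part of this make-up in the Kpna3 values was not tested. Ipo9, at low counts, had 0.785, 0.0895 and 0.794 CPM in stressed and 1.69, 0.843 and 2.03 CPM in control round cells (-1.54 ± 0.85, adjusted p = 0.992), and in all cells 0.864, 0.770 and 1.27 CPM against 2.92, 1.57 and 1.80 CPM (-1.11 ± 0.53, adjusted p = 1.00). The transfer RNA exporter Xpot had 0, 0.806 and 0.763 CPM in stressed and 3.52, 1.24 and 1.33 CPM in control round cells (-1.73 ± 0.82, adjusted p = 0.992). Tnpo1 had 4.45, 6.98 and 6.87 CPM in stressed and 12.6, 8.31 and 9.88 CPM in control round cells (-0.73 ± 0.36, adjusted p = 0.992).

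In 4 of the positive values named by rule, stressed replicate 1 was the highest library and the sign turned without it. Nup88 in elongating cells had 127, 46.6 and 36.7 CPM in stressed and 45.0, 46.3 and 38.9 CPM in control libraries, a log2 change of 0.82 ± 0.47 that was -0.04 without that library. The macrophage markers of that library in this class summed to 114 CPM, against 52.3 to 75.2 CPM in the other libraries. Of its 53 elongating cells, 41 lay in the first elongating cluster, where the median level of Nup88 was higher than in the next. The part of either in this Nup88 value was not tested. Nup153 in all cells had 266, 120 and 85.4 CPM in stressed and 91.0, 131 and 93.1 CPM in control libraries (0.58 ± 0.40), and -0.03 without it. Xpo7 in round cells had 3.14, 0.403 and 0.214 CPM in stressed and 0.519, 0.442 and 0.0336 CPM in control libraries (1.69 ± 1.28), and -0.08 without it. Kpna4 in elongating cells had 62.1, 32.5 and 24.9 CPM in stressed and 25.02, 36.4 and 32.6 CPM in control libraries (0.45 ± 0.42), and -0.11 without it. In each of these 4 cases the other stressed libraries fell among the controls or close to them. The remaining genes named by rule were Nup153, Nup85, Nup37, Nup54 and Nup88 in spermatocyte-like cells, between -0.90 and 0.65, Nup88 and Nup93 in round cells, at 0.29 and 0.33, Nup155, Xpo4 and Tnpo3 in elongating cells, between -1.05 and 0.92, and Nup188, Nup37 and Xpo7 in all cells, between -1.27 and 1.23, none of them called.

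**Figure D4:**
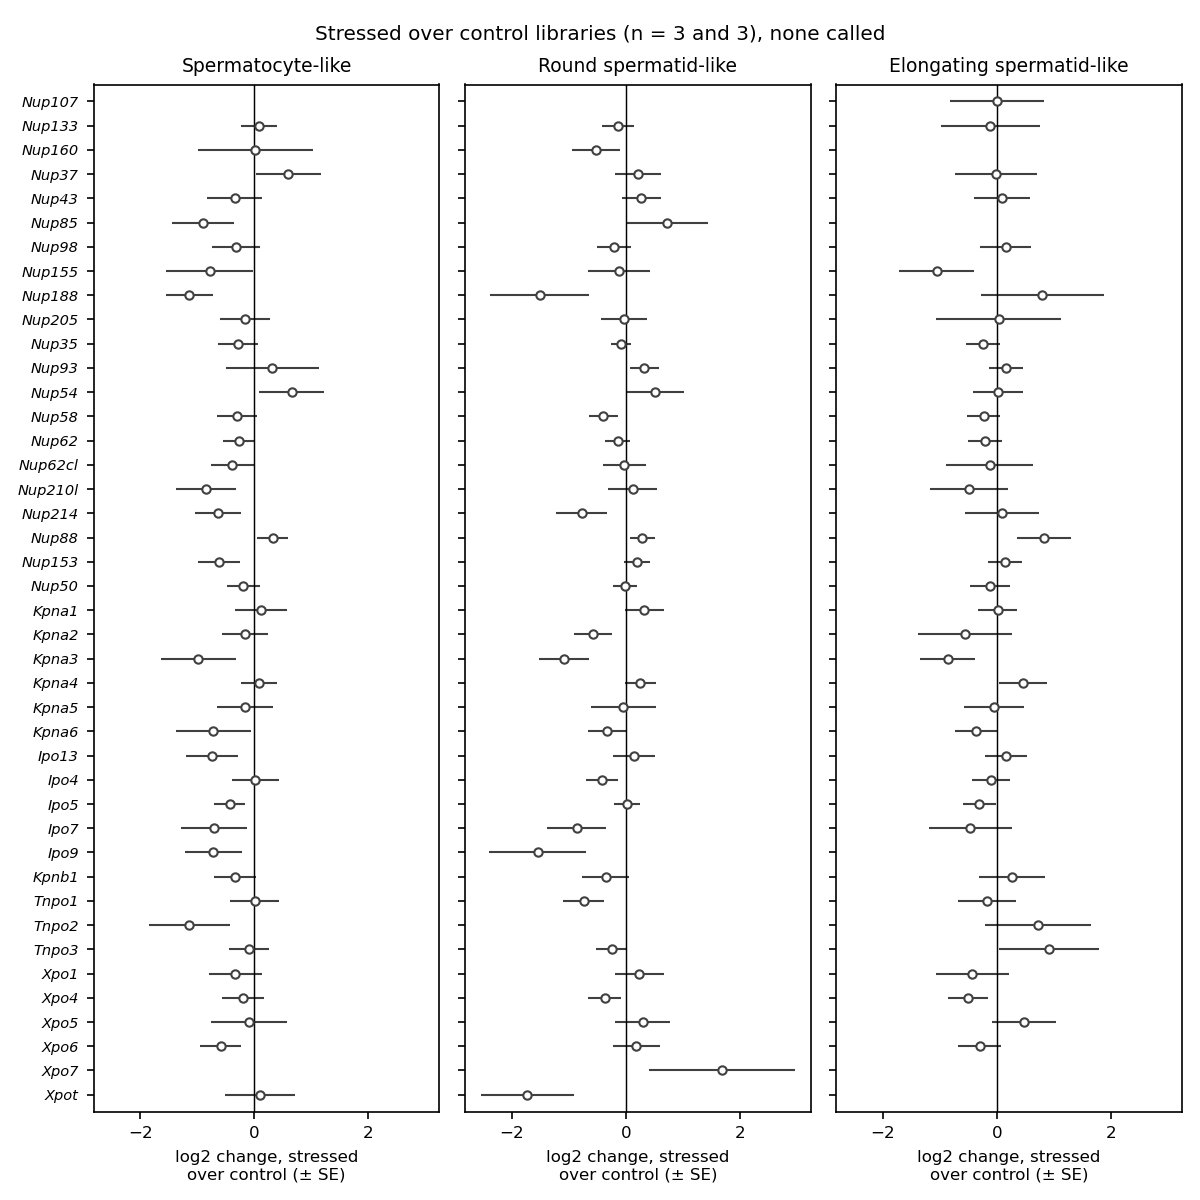
Log2 change of stressed over control libraries (horizontal axis, ± SE, n = 3 and 3) for each gene tested in spermatocyte-like (left), round (middle) and elongating cells (right), ordered by role. None of the 40, 40 and 37 genes was called, and most values in spermatocyte-like cells, 29 of 40, lie left of 0.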

How the data were processed

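Single-cell RNA libraries of testicular tissue were made with the Singleron GEXSCOPE kit and sequenced on an Illumina NovaSeq, per the labels' protocols. The authors deposited whole-number counts, 1 table for each of the 6 libraries. The sources used here give neither the aligner, the genome build and the strand handling nor whether reads or molecules were counted. The deposited cells had at most 5% mitochondrial counts. The deposited normalized tables were not used. All 11744 cells had at least 200 genes and were kept. Scrublet in scanpy 1.11.5 called 73 cells doublets, 0.622%, which were left in.

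Clusters were made with leidenalg 0.10.2, igraph 0.11.9 and scikit-learn 1.9.0 in Python 3.11.15 from 1989 variable genes without the 44 members and mitochondrial genes, with 30 principal components, 15 neighbours and Leiden resolution 1. Clusters were named from fixed marker lists, with at least 3 detected markers. A cluster of 21 cells stayed unnamed, and the Apoe cluster, which scored as macrophage-like, entered no class.

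Counts were summed per library and class with at least 20 cells and tested in R 4.3.3 by edgeR 4.0.16 with its quasi-likelihood test (TMM factors, filterByExpr, robust fit, Benjamini-Hochberg over all genes), and again with DESeq2 1.42.0. SE is the absolute log2 change divided by the square root of the F statistic. Stage fits used the library as a block, and stress fits compared the groups within a class. Printed class levels use the TMM factors of the stage fit, and those of all cells use their own. The test was also run on simulated counts with the same spread for every gene. These data differ in that, so the run does not measure the power of the test here.

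Same-numbered stressed and control libraries correlated at -0.14 to 0.22 in their deviations from the group means, so replicate numbers were not taken as pairs. The genes, lists and comparisons were chosen with earlier results of these data known. Genes named are the 10 largest called changes per direction and stage step that moved alike in every library, the 3 smallest p per direction in each stress test, all Kpna genes, Nup210, Nup210l, Nup62, Nup62cl, Xpo1, Kpnb1, Ipo5 and Tnpo2. In the pathway lists they are 2 called genes per direction and Ran, of which some are left unprinted. Other members were added so that each is accounted for. Sequences and overlapping genes come from RefSeq tables for GRCr8.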

Additional observations from a re-analysis of the deposited data

Results flagged for a closer look

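Over the 6 libraries, 55 within-library changes of named genes were checked for 1 library standing apart from the others, and 6 did. A gap of that size turns up by chance in about 5% of such groups. In 5 of the 6 it was stressed replicate 1, the library with 24 spermatocyte-like and 53 elongating cells. Its log2 difference between round and spermatocyte-like cells was 2.14 for Nup210l, against -1.10 to -0.17 in the other libraries, and -4.30 for Xpot, against -1.89 to -1.14. Its difference between elongating and round cells was 1.22 for Ipo5, against 1.90 to 2.19, 0.28 for Nup93, against 1.01 to 1.33, and -1.08 for Nup88, against -2.63 to -2.11. In the other case control replicate 3 had a difference of 4.52 for Nup54 between elongating and round cells, against 3.13 to 3.59 in the rest. Without stressed replicate 1 the fitted changes were -0.53 for Nup210l and -1.84 for Xpot in the first step, and 2.05 for Ipo5, 1.22 for Nup93 and -2.42 for Nup88 in the second. The macrophage markers of stressed replicate 1 summed to 1004, 342 and 114 CPM in spermatocyte-like, round and elongating cells, and 41 of its 53 elongating cells lay in the first elongating cluster. The part of the markers and of this make-up in these differences was not tested.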

How the results depend on the processing

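The alternatives were DESeq2, its size factors in edgeR, no filter on low counts, no library block, other clustering resolutions, members allowed in the clustering, the Apoe cluster counted as elongating, a minimum of 50 cells, removal of the 5% highest doublet scores, each library left out and, chosen after seeing the data, no TMM factors. Only the stage values of genes named by the rules above were counted under these alternatives. Of these, 854 kept their direction and side of the threshold, 8 became called, 9 lost the call and 13 reversed. Other members also changed sign without TMM factors, among them Nup107 (-0.37), Nup43 (-0.22), Nup50 (-0.28) and Nup98 (-0.57) in the first step, and Nup35 and Nup155 in the second. Without TMM factors, 26 members were called lower in round against spermatocyte-like cells (16 with them) and 3 higher in elongating against round cells (13 with them). In the same setting the first step was -0.51 for Kpna4 and -0.11 for Nup58, and the second was -0.29 for Ipo4, -0.18 for Kpna1, -0.12 for Kpna5, -0.36 for Nup58, -0.72 for Nup62, -0.17 for Nup93 and -0.44 for Tnpo2, of which Nup62 was called lower (edgeR adjusted p = 0.00221). Kpna4 was also at -0.043 in the first step with DESeq2 and at -0.041 with its size factors in edgeR. Nup62cl was at 0.00227 there at Leiden resolution 2, and between -0.30 and 0.041 with each library left out, the higher value without control replicate 3. With each library left out in turn, 9 to 10 members rose and 12 to 19 fell in the first step, and 12 to 15 rose and 19 to 21 fell in the second. Counts of members called for stress, and for stress by stage, were 0 under every alternative run. Fitting the replicate number as a block left 0 members called for stress, as without the pairing, and changed no call. With each library left out, uncalled stress values ran from -0.00596 (without stressed replicate 2) to 1.08 for Nup37 in spermatocyte-like cells. Without stressed replicate 1 they were lowest for Xpo7 in round cells (-0.084 to 2.31), Nup88 and Kpna4 in elongating cells (-0.044 to 1.15 and -0.11 to 0.72) and Nup153 in all cells (-0.029 to 0.87). Xpo7 was at -0.33 in round cells at Leiden resolution 2. With the Apoe cluster counted in, elongating values were 0.12 for Xpo4, -0.072 for Kpna4 and 0.29 for Nup155, each a change of sign. The cause of these changes was not tested. Stressed replicate 1 has 24 spermatocyte-like cells, and the median stress change of the members in that class was -0.35 without it, against -0.30 with it.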
